A study of Rattus norvegicus with 44 samples.

Results

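Expression of 10 circadian clock genes was followed in the dentate gyrus (DG) of 44 male F344 rats, with 1 sequenced library per rat. The genes were taken by name, as Per1, Per2, Per3, Arntl, Clock, Nr1d1, Nr1d2, Dbp, Cry1 and Cry2, from a table of 18347 gene identifiers, and all 10 were among the 15598 genes kept for testing, whose normalized values averaged 5 or more. The young rats (YNG, n = 10) were 6 months old, and the authors' attribute table lists vehicle as their treatment. The other rats started treatment at 12 months and were about 18 months old when tissue was taken, and they received vehicle (AV, n = 12), 12 mg/kg ABT-263 (AA, n = 11), or 1.2 mg/kg dasatinib with 12 mg/kg quercetin (ADQ, n = 11). ABT-263 (navitoclax) blocks anti-apoptotic BCL-2 family proteins, dasatinib is a tyrosine kinase inhibitor and quercetin is a plant flavonol, and both regimens are used as senolytics, agents meant to remove senescent cells. The older rats received drug or vehicle by oral gavage for 5 days in each of 8 cycles, with a final round 2 weeks before collection. All rats lived under a reversed light cycle with 12 h of light and 12 h of darkness, and the hour at which each rat was euthanized is not given in the sources used here. The sample labels carry only the age, so the treatment of each rat comes from that table through the rat's name.

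The circadian clock is a feedback loop of transcription. The proteins of Arntl (also called Bmal1) and Clock pair up and switch on genes that carry E-box elements, among them the Per and Cry genes, whose proteins then return to the nucleus and repress the pair. In a second loop the nuclear receptors encoded by Nr1d1 and Nr1d2 (REV-ERB alpha and beta) repress Arntl through ROR elements, and Dbp is an output gene whose protein activates D-box elements, so that in most tissues Dbp, Nr1d1 and the Per genes peak on the other side of the day from Arntl. Per1 and Per2 also respond to neuronal activity and to glucocorticoids. Without the hour of collection, the levels here cannot be placed in the daily cycle.

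The depth estimated from the table was 10166556 to 24328425 reads per rat, with group medians between 15135379 (AV) and 17820755 (ADQ). Granule cell markers of the DG were present in every rat and 9 of 10 were tested (Tdo2 was too low), but their summed normalized level ranged from 5028 to 19039 in AA and from 7927 to 18147 in AV, while YNG had 13249 to 18921 and ADQ 13971 to 17866. AA rats 5 and 11 and AV rats 2 and 11 had the lowest mean granule cell marker level, and counts below are also given without them where that changed a call. Markers of neighboring regions varied more widely. The sum of 6 CA1 pyramidal cell markers ranged from 2377 to 17207 in YNG and from 2001 to 28330 in AV. It ranged from 1835 to 42740 in AA and from 2366 to 11509 in ADQ. The part of CA1 tissue in the clock gene values was not tested. Rats also fall into 2 series by number, which no label explains. Series a holds YNG rats 1 to 6 and older rats numbered up to 4011, and series b holds YNG rats 7 to 10 and the rats numbered from 4031, in which the AV rats are 4566 to 4572 and the AA and ADQ rats are 4031 to 4110. With the series as a term, Nr1d2 was lower in series b (-0.15, limma p = 0.0161, adjusted p = 0.141) and the other 9 clock genes did not pass, where 19.7% of all genes did. In bulk tissue, fewer cells of a type and less RNA per cell cannot be told apart.

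Between all older rats and YNG, 4 of the 10 clock genes passed the study's threshold of an unadjusted p of 0.05, with Per2 and Arntl higher and Dbp and Nr1d1 lower. This is a share near that of all genes, since 32.4% of the 15598 tested genes passed in the same comparison (limma on log2(value + 1), two-sided), 15.7% as higher and 16.7% as lower. Of all calls 48.4% were higher, which became 83% when each rat was scaled to the same total. Dbp and Per2 also passed after Benjamini-Hochberg adjustment over all tested genes, where 14.9% of genes did. Per1, Per3, Clock, Nr1d2, Cry1 and Cry2 did not pass.

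Dbp, the output transcription factor, had normalized values of 1349 (lowest), 2078 (median) and 2539 (highest) in YNG. AV rats had 1241, 1529.8 and 2495 in the same order, AA rats 1344, 1525 and 2269, and ADQ rats 974, 1189.7 and 1676. Every ADQ rat lay under the YNG median and 8 of 11 lay under the lowest YNG rat, whereas 4 of 12 AV rats and 1 of 11 AA rats did so. The older rats were lower than YNG by a log2 difference of -0.34 ± 0.10 (SE, limma p = 0.00168, adjusted p = 0.0251), a ratio of 0.792. Among the single groups the difference was -0.56 ± 0.12 in ADQ (limma p = 3.44e-05, adjusted p = 0.0117), -0.25 ± 0.12 in AV (limma p = 0.0414, adjusted p = 0.215) and -0.20 ± 0.12 in AA (limma p = 0.116, adjusted p = 0.296). The decrease in ADQ passed in series a alone (-0.41, p = 0.0164) and in series b alone (-0.66, p = 0.000609).

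Nr1d1, the repressor of Arntl, had values of 1546, 2172 and 2509 in YNG as lowest, median and highest. AV rats had 1468, 1789 and 2399, AA rats 1416, 1779 and 2497, and ADQ rats 1208, 1508 and 2187. The ranges of all 4 groups overlapped, yet 7 of 11 ADQ rats lay under the lowest YNG rat, against 2 of 12 in AV and 2 of 11 in AA. The log2 difference from YNG was -0.23 ± 0.09 for all older rats (limma p = 0.00974, adjusted p = 0.0575) and -0.37 ± 0.10 for ADQ (limma p = 0.00083, adjusted p = 0.0277). AV (-0.15, p = 0.157) and AA (-0.18, p = 0.101) were not separated from YNG by this test. In ADQ the decrease passed within each series (-0.32 in series a, p = 0.0326, and -0.39 in series b, p = 0.0115). When each rat was scaled to the same total, which raised the median of all genes by 0.13 in older rats, the difference of all older rats was -0.10 (p = 0.214).

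Per2, a repressor of the core loop, moved the other way. Its lowest, median and highest values were 414, 714 and 1121 for YNG, 504, 966 and 1108 for AV, 616, 939 and 1320.4 for AA, and 573, 963 and 1157 for ADQ. The YNG median was exceeded by 10 of 12 AV rats, 10 of 11 AA rats and 10 of 11 ADQ rats, and the highest YNG rat by 4 AA rats, 1 ADQ rat and 0 AV rats. The log2 difference of the older rats from YNG was 0.37 ± 0.12 (limma p = 0.00459, adjusted p = 0.0392), a ratio of 1.29. It was 0.47 ± 0.15 in AA (limma p = 0.00274, adjusted p = 0.0552), 0.33 ± 0.15 in ADQ (limma p = 0.033, adjusted p = 0.142) and 0.30 ± 0.15 in AV (limma p = 0.0471, adjusted p = 0.229). In series b alone the older rats differed by 0.34 (p = 0.112).

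Arntl, the partner of Clock, had values of 283, 318 and 402 for YNG, 319, 369 and 428 for AV, 291, 380.5 and 424 for AA, and 309.7, 355 and 459 for ADQ. All 12 AV rats, 10 of 11 AA rats and 10 of 11 ADQ rats exceeded the YNG median. The log2 difference from YNG was 0.15 ± 0.07 for AV, 0.16 ± 0.07 for AA and 0.18 ± 0.07 for ADQ, and 0.16 ± 0.06 over all older rats (limma p = 0.0112, adjusted p = 0.0623). Within series a it was 0.14 (p = 0.138) and within series b 0.19 (p = 0.069). Clock, its partner, had medians of 1016 (YNG), 1061 (AV), 1033 (AA) and 1101 (ADQ) with widely overlapping ranges, and the 95% interval of the difference of older rats from YNG ran from -0.08 to 0.18.

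**Figure D1:**
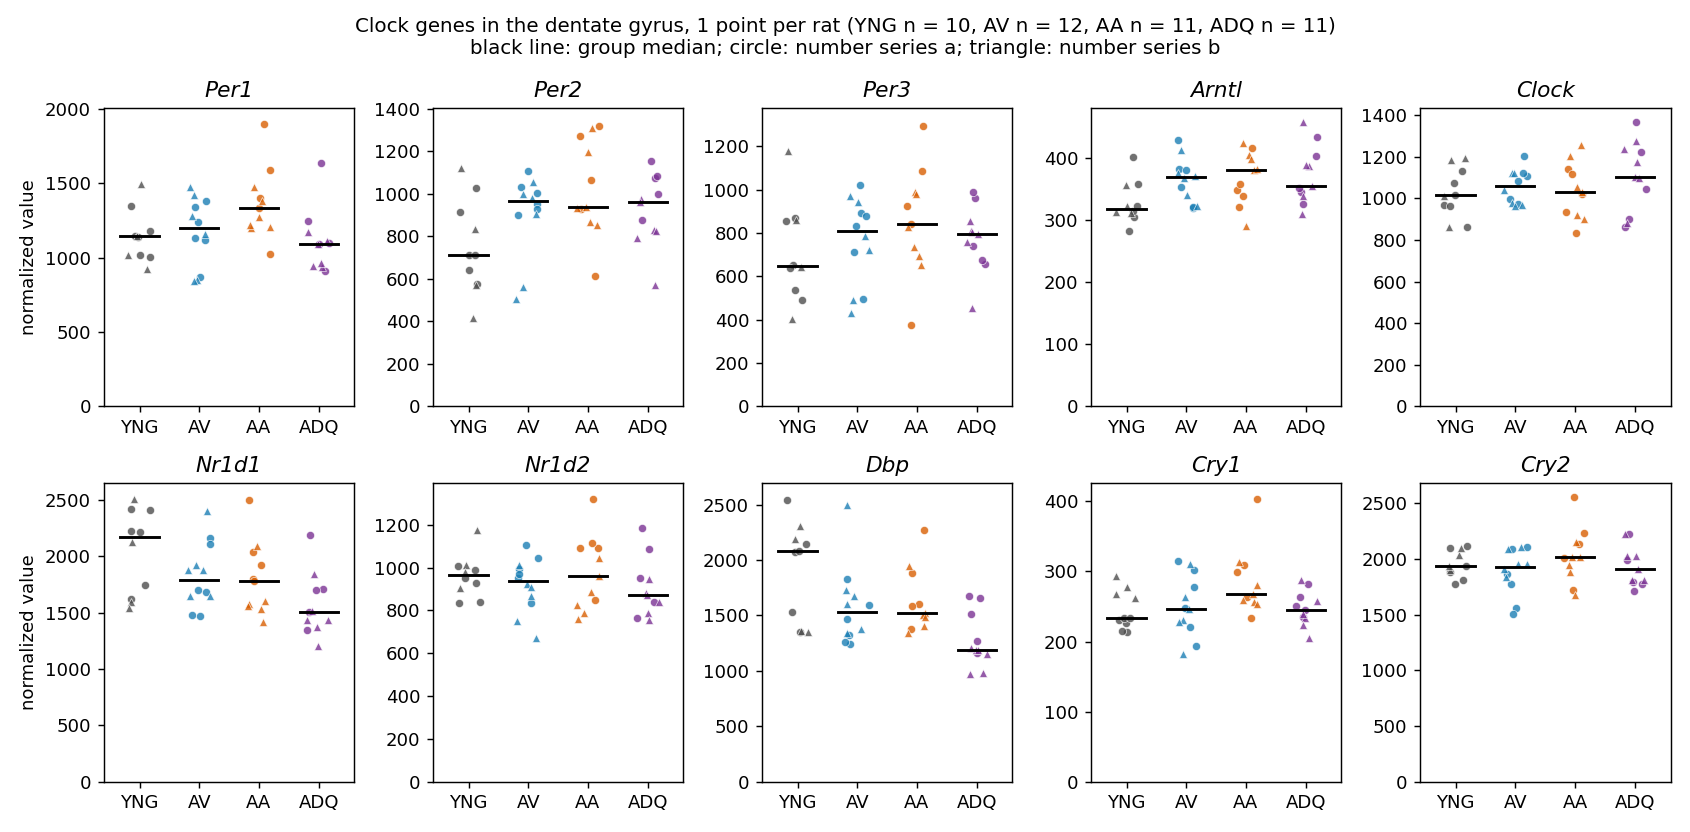
Normalized value of each clock gene (vertical axis, starting at 0) in every rat, by group (horizontal axis), with the group median as a black line, circles for number series a and triangles for series b. Dbp and Nr1d1 sit lowest in ADQ (medians 1189.7 and 1508), and the Per2 medians of the older groups (939 to 966) lie above the YNG median of 714.

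Promoter sequence is shown for these 4 genes because they are the ones that passed between older and young rats. The windows are the 250 bases before each annotated start, from RefSeq on build GRCr8 (the expression values were made on rn6), and 9 of the 10 clock genes had a window (none for Cry1), with 2 starts for Nr1d1 and for Clock. Capitals mark matches, on either strand, to the E-box CACGTG, the related CACGTT, the D-box letters TTATGTAA or TTACGTAA, the ROR element letters AGGTCA and the cAMP response element TGACGTCA. The Per2 window is chr9:99496994-99497243 (minus strand), Arntl chr1:176766078-176766327 (plus strand), Dbp chr1:105312006-105312255 (plus strand), and Nr1d1 chr10:84231813-84232062 and chr10:84229455-84229704 (minus strand), each written 5′ to 3′ along its gene.
Per2: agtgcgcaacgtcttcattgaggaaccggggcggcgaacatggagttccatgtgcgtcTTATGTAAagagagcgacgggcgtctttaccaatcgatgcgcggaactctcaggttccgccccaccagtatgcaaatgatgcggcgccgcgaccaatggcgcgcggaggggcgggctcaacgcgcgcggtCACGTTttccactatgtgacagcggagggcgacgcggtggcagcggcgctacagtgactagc
Arntl: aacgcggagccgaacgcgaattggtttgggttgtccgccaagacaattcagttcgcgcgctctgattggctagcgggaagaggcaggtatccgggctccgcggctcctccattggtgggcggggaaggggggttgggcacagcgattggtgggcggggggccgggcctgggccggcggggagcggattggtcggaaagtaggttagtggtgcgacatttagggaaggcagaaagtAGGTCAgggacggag
Dbp: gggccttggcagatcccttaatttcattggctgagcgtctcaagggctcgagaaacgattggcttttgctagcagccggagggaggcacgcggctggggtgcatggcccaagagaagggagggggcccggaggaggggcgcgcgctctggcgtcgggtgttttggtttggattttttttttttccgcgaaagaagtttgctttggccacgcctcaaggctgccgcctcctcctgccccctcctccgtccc
Nr1d1, first start: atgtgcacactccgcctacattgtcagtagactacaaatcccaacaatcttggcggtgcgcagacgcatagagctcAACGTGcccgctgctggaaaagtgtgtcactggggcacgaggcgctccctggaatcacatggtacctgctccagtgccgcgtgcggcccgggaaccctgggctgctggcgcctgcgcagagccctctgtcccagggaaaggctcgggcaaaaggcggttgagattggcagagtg
Nr1d1, second start: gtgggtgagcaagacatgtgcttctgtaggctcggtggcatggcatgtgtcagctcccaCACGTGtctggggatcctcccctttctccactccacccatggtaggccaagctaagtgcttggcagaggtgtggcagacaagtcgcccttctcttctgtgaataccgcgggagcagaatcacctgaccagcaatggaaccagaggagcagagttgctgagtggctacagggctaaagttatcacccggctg

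The Per2 window held a CACGTT beginning 62 bases before the start and a D-box match beginning 192 bases before it. Among the 33469 windows of the rat annotation, 4.07% held CACGTT and 0.828% held TTATGTAA on either strand. The second Nr1d1 start had a CACGTG (5.59% of all windows) beginning 191 bases upstream and the first had AACGTG, which is CACGTT on the other strand, beginning 174 bases upstream. The Arntl window had AGGTCA (14.1% of all windows) 15 bases upstream, and the Nr1d2 window had the same letters 187 bases upstream. The windows of Dbp, Per1, Per3 and Clock held none of these letters, and that of Cry2 held 1 AACGTG. A match describes the letters only and says nothing of binding in these rats.

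The remaining Per and Cry genes, which encode repressors, did not pass between YNG and AV. Per1 had values of 924, 1142 and 1493 for YNG, 840.3, 1199 and 1477 for AV, 1025, 1334 and 1898 for AA, and 910.5, 1094 and 1637 for ADQ. Cry1 had 213, 234 and 294 for YNG, 182, 247 and 315 for AV, 233, 268 and 403 for AA, and 204, 246 and 288 for ADQ. For both genes 10 of 11 AA rats lay above the YNG median, above the AV median and above the ADQ median. In AA against YNG, Per1 was higher by 0.25 ± 0.11 (limma p = 0.0222, adjusted p = 0.125) and Cry1 by 0.21 ± 0.09 (limma p = 0.0273, adjusted p = 0.137). With Per2 and Arntl that made 4 of 10 clock genes higher and 0 lower in AA, where 26.6% of all tested genes passed in either direction and 12.6% passed as higher. None of the 4 passed after adjustment, where 3.85% of all genes did. The Cry1 difference was 0.39 in series a (p = 0.00759) and -0.02 in series b (p = 0.855). The 4 YNG rats of series b had Cry1 values of 262 to 294 and the 6 of series a 213 to 234. Without AA rat 4, the highest for both genes, neither passed (Per1 p = 0.0589, Cry1 p = 0.0789), and 2 of 10 clock genes remained past the threshold.

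Per3 and Cry2 did not pass in any of the 7 comparisons of the main fit, though each passed in some of the other settings. With array weights Per3 was higher in older rats than in YNG (0.35, limma p = 0.00179). Per3 was spread widely in every group, from 405 to 1181 (YNG), 431 to 1024 (AV), 374 to 1293 (AA) and 455 to 988 (ADQ), around medians of 648, 809, 843 and 794. Cry2 was held in a narrow range, from 1776 to 2117 (YNG), 1509 to 2111 (AV), 1679 to 2552 (AA) and 1708 to 2225 (ADQ). Nr1d2, the paralog of Nr1d1, also passed nowhere in the main fit, with medians of 966, 938, 963 and 874 in YNG, AV, AA and ADQ. Over all rats its 95% interval for ADQ against YNG ran from -0.28 to 0.08, while that of Nr1d1 ran from -0.59 to -0.16. In series b alone Nr1d2 was lower than YNG in all older rats (-0.24, limma p = 0.0204). The same held there for AV (-0.26, limma p = 0.0347) and ADQ (-0.26, limma p = 0.033).

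In the age comparison with vehicle alone (AV against YNG), 3 of 10 clock genes passed, Per2 and Arntl higher and Dbp lower, against 21.3% of all tested genes. None of the 3 passed after adjustment, where 2.35% of all genes did. These calls were marginal. The count was 0 when only AV and YNG were fitted, 0 without the 4 rats with the lowest granule cell markers and 1 by permutation of the group labels, and leaving out single rats of either group gave counts from 0 to 3. In ADQ against YNG, 4 of 10 passed against 28.1% of all genes, and 2 of them (Dbp and Nr1d1) after adjustment against 7.08%.

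The senolytic groups were then set against AV. In ADQ against AV, Dbp and Nr1d1 were lower and no clock gene was higher, a count of 2 of 10 where 9.32% of all tested genes passed, 5.9% as lower. Leaving out AV rat 4, AV rat 8, ADQ rat 4 or ADQ rat 8 reduced it to 1. The Dbp difference was -0.31 ± 0.12 (limma p = 0.0109, adjusted p = 0.407), with 9 of 11 ADQ rats under the AV median and 7 under the lowest AV rat. The Nr1d1 difference was -0.23 ± 0.10 (limma p = 0.0279, adjusted p = 0.479), with 9 of 11 ADQ rats under the AV median and 5 under the lowest AV rat. In series a, where the ADQ rats are numbered 3994 to 4007 and the AV rats 3989 to 4011 except for AV rat 1 at 3890, the Dbp difference was 0.00 (p = 0.997) and that of Nr1d1 -0.07 (p = 0.628). In series b they were -0.59 (p = 0.000617) and -0.37 (p = 0.00773). Of all genes 5.67% passed in series a and 9.74% in series b. The Dbp difference between the series had p = 0.0112 (limma interaction, adjusted p = 0.961). In series b the numbers of the AV rats (4566 to 4572) and of the ADQ rats (4031 to 4110) do not interleave, so that number block and treatment cannot be told apart there.

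Markers of other cells moved in the same comparison. Of the 5 microglial markers, 4 were lower in ADQ than in AV (Cx3cr1, P2ry12, Tmem119 and Csf1r) and the median of the list was -0.32, and all 4 endothelial markers tested and 4 of 6 oligodendrocyte markers were lower as well, where 5.9% of all genes were. Gfap, the astrocyte filament gene, was lower (-0.57, limma p = 0.000225, adjusted p = 0.134) and the other 4 astrocyte markers did not pass. Of 5 choroid plexus markers tested, Clic6 (-1.35, limma p = 0.0192) and Aqp1 (-0.89, limma p = 0.0235) were lower. The summed microglial level ran from 3139.9 to 5305 in AV and from 2551 to 3724 in ADQ, and no marker of these lists was at 0 in every rat. The part of these cells in the differences of Dbp and Nr1d1 was not tested.

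In AA against AV, Per1 (0.22 ± 0.10, limma p = 0.0342) and Cry1 (0.19 ± 0.09, limma p = 0.0393) were higher and none was lower, a count of 2 of 10 where 4.51% of all tested genes passed, 1.4% as higher. Both had an adjusted p of 0.999, and the count fell to 0 by permutation of the labels (Per1 p = 0.0583, Cry1 p = 0.0746), with array weights, within series b, and without AV rat 12, AA rat 2 or AA rat 4. Within series a it was 1, from a gene that had not passed over all rats (Cry2, 0.23, p = 0.0495). In AA against ADQ, 3 of 10 were higher in AA where 4.53% of all genes passed, 2.13% as higher. These were Per1 (0.30 ± 0.10, limma p = 0.00617), Dbp (0.37 ± 0.12, limma p = 0.00365) and Cry1 (0.19 ± 0.09, limma p = 0.0356), each with an adjusted p of 0.981, and Cry1 did not pass without AA rat 4 (p = 0.103). All 11 AA rats lay above the ADQ median of Dbp and 3 above the highest ADQ rat. The Per1 and Dbp differences kept their direction in both series (0.28 and 0.25 in series a, 0.32 and 0.46 in series b) and passed in series b alone. AV, AA and ADQ are compared in pairs that share rats, and no gene of the whole table passed after adjustment in any of the 3 pairs (0 by limma, with 703, 1454 and 707 at an unadjusted p under 0.05 for AA against AV, ADQ against AV and AA against ADQ).

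**Figure D2:**
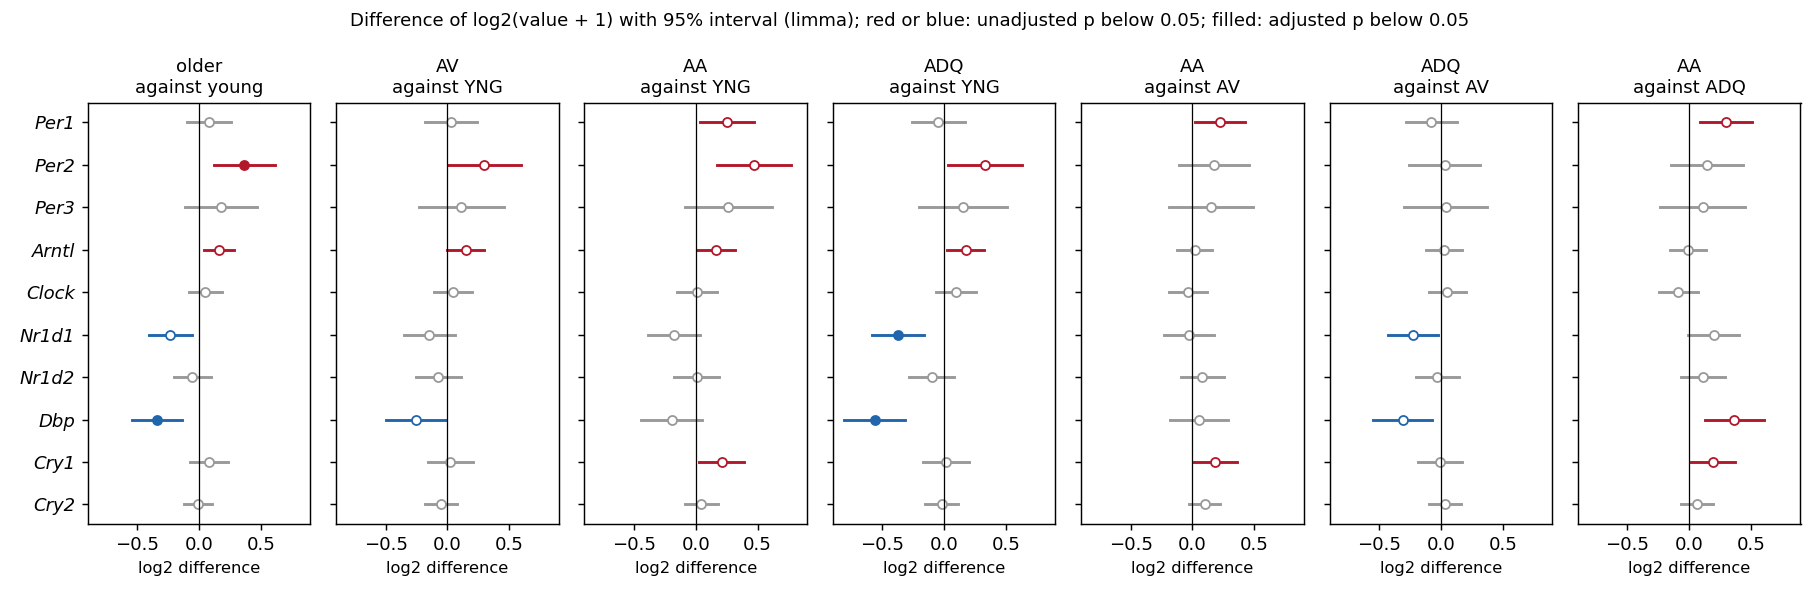
Difference of log2(value + 1) for each clock gene in the 7 comparisons, with points for the estimate, lines for the 95% interval, color for an unadjusted p under 0.05 (red higher, blue lower) and filled points for an adjusted p under 0.05. Filled points appear for Per2 and Dbp in older against young and for Dbp and Nr1d1 in ADQ against YNG.

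Immediate early genes, which neurons switch on within minutes of activity, were counted beside the clock genes because Per1 is induced in the same way. In AA against YNG 8 of 17 were higher and none lower, where 12.6% of all genes were higher, with Npas4 (1.08, limma adjusted p = 0.0431) and Dusp1 (0.77, limma adjusted p = 0.0462) past the adjusted threshold. In AA against ADQ 7 of 17 were higher, where 2.13% of all genes were, including Dusp1 (0.79, limma p = 0.000721), Junb (0.53, limma p = 0.00115) and Fos (0.72, limma p = 0.00196). In ADQ against AV 3 of 17 were lower (Junb, Ier2 and Dusp1), where 5.9% of all genes were. In AA against AV, where Per1 was also higher, 1 of 17 was higher, where 1.4% of all genes were. In AV against YNG and in ADQ against YNG 2 of 17 were higher and none lower. In these 2 comparisons 21.3% and 28.1% of all genes passed in either direction, and 49.6% and 48% of those calls were higher. The part of neuronal activity in the Per1 differences was not tested.

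How the clock genes varied between rats of 1 group differed from gene to gene. The residual SD of log2 values was 0.42 for Per3, 0.35 for Per2 and 0.29 for Dbp, against a median of 0.32 over all tested genes. Relative to the SD that limma's trend gives at the same level, Per3 was 1.87 times, Per2 1.61 times and Dbp 1.35 times as variable, placing Per3 at the 92.9 percentile of all tested genes by that ratio. Per1 and Nr1d1 were near 1.15 times. Arntl (0.63 times, percentile 3.64), Cry2 (0.675 times), Cry1 (0.749 times) and Clock (0.815 times) were among the steadier genes, and Nr1d2 was at 0.939 times. From the lowest to the highest rat of the series, Per3 spanned 3.46-fold and Arntl 1.62-fold.

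The young rats show how the variation was shared. In Dbp they fell into 2 ranges, with YNG rats 5, 8, 9 and 6 at 1349 to 1530.2 and the other 6 at 2075 to 2539. The same 4 rats had the 4 lowest Nr1d1 values of the group (1546 to 1745), the 4 highest Per2 values (835 to 1121) and the 4 highest Per3 values (854 to 1181). Rats 5 and 6 belong to series a and rats 8 and 9 to series b. These 4 rats also had the lowest summed normalized values of the group (15291720 to 15988787). The other 6 had 16235094 to 20579982, and the part of the sum in the pattern was not tested. The pattern was noticed after the values were seen and is given as a description. Arntl did not divide these rats, since YNG rat 5 had the lowest value and the other 3 ranked 4, 6 and 7 of 10.

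In the older groups single rats stood at both ends. AA rat 3 had the highest Dbp of AA (2269) and the lowest Per1, Per2, Per3 and Clock, while AA rat 4 had the highest Per1, Per2, Per3, Nr1d2, Cry1 and Cry2 of that group. AV rat 8 had the highest Dbp (2495) and Nr1d1 (2399) of AV and the lowest Per2 (504). AV rat 12 had the lowest Per1, Per3, Clock, Nr1d2 and Cry1 of AV. In ADQ, rat 10 had the lowest Per2 and Per3, and rat 8 had the lowest Dbp and Nr1d1.

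Over the 44 rats, with each group's mean removed, 14 of the 45 pairs of clock genes were correlated after adjustment over the pairs (two-sided permutation within groups, 100000 resamples), 8 positively and 6 negatively. Spearman's rho gave 15 pairs, of which 13 were shared. The share of pairs that would pass among all genes was not computed, so these counts have no background beside them. Pairs that passed were not all extreme. With 13703 genes ranked from the highest r with Dbp to the lowest, Clock (r = -0.45) stood at 12019 and Per2 (r = -0.42) at 11115. All pairs come from the same 44 libraries, so the genes of a pair share each library's depth and scaling. The 3 Per genes rose and fell together from rat to rat. Per2 and Per3 had r = 0.78 (rho = 0.66), Per1 and Per2 r = 0.70 (rho = 0.69), and Per1 and Per3 r = 0.63 (rho = 0.58), with permutation p values adjusted over the pairs of 0.000225, 0.000225 and 0.00036 for r and 0.00015, 0.00015 and 0.000675 for rho. Without the 2 rats farthest from the median of the first gene these were 0.75, 0.71 and 0.69. For comparison, 12.9% of 13703 genes with a mean of at least 20 had an r of 0.5 or more with Per2. AV rats 2, 8 and 12, lowest in Per3, had the 3 highest summed normalized values of AV (17481528 to 18998183). AA rat 4, highest of AA in all 3 Per genes, had the lowest sum (14370901). ADQ rat 10, lowest of ADQ in Per2 and Per3, had the highest (17391448). AA rat 3, lowest of AA in all 3, had 15766868, not the highest of AA. The correlations were not repeated at the same total per rat, and the part of the sum was not tested.

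Dbp and Nr1d1 formed the other close pair, with r = 0.70 (adjusted permutation p = 0.0003) and rho = 0.68 (adjusted permutation p = 0.000337), and r = 0.69 without 2 rats. By group r was 0.95 (YNG), 0.45 (AV), 0.55 (AA) and 0.76 (ADQ), and it was 0.45 in series a and 0.88 in series b. In all, 10.5% of these genes had an r of 0.5 or more with Dbp and 8.95% an r of -0.5 or less, and Nr1d1 ranked 126 of 13703. Against Per3 Dbp ran the other way, with r = -0.62 (rho = -0.65, adjusted permutation p = 0.000337 and 0.00015), -0.57 without 2 rats. Per1 did not pass with Dbp (r = -0.28, rho = -0.24, adjusted permutation p = 0.164 and 0.224), and its r was 0.38 in ADQ. The r of Per3 with Dbp was negative in all 4 groups, from -0.78 in YNG to -0.30 in ADQ, and in both series (-0.81 and -0.59). The r of Per2 with Dbp was -0.42 (adjusted permutation p = 0.0289) but rho was -0.30 (adjusted permutation p = 0.141) and r was -0.29 without the 2 rats farthest from the Per2 median, YNG rat 7 and AV rat 8. Both of these rats are in series b, and r was -0.67 in series a and -0.50 in series b. It was -0.80 in YNG and 0.52 in ADQ.

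Clock went with Per3 (r = 0.57, rho = 0.59) and Nr1d2 (r = 0.56, rho = 0.57) and against Nr1d1 (r = -0.47, rho = -0.46) and Dbp (r = -0.45, rho = -0.44), with adjusted permutation p between 0.000375 and 0.0101 for r and between 0.00063 and 0.0176 for rho. The r of Clock with Dbp was -0.70 in series a and -0.12 in series b. Nr1d1 went with Cry2 (r = 0.46, rho = 0.42) although YNG alone had r = -0.37. Nr1d2 went with Cry1 at r = 0.46, which was 0.25 without AV rat 12 and AA rat 4, and so rests on those rats. Per3 and Nr1d1 had r = -0.38, which was -0.12 in series a and -0.77 in series b. The paralogs Nr1d1 and Nr1d2 did not pass over all rats (r = -0.14, rho = -0.14, adjusted permutation p = 0.547 and 0.583). Their r was -0.63 in series a (adjusted permutation p = 0.0184) and -0.003 in series b. Cry1 and Cry2 did not pass either (r = 0.23, rho = 0.13, adjusted permutation p = 0.315 and 0.608).

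Arntl had few correlations with the other clock genes. Its r was -0.03 with Dbp (adjusted permutation p = 0.937), -0.20 with Nr1d1 (adjusted permutation p = 0.323), -0.03 with Per3 and 0.07 with Clock. By both measures only Cry2 passed with Arntl, at r = -0.46 (rho = -0.53, adjusted permutation p = 0.0101 and 0.00281), and r was -0.54 without 2 rats and negative in all 4 groups. Per1 passed with Arntl by rho (-0.38, adjusted permutation p = 0.0407) but not by r (-0.33, adjusted permutation p = 0.0732). Within groups the r of Arntl with Dbp turned from 0.63 in YNG and 0.32 in AV to -0.66 in AA and -0.47 in ADQ, and the difference between groups was not tested. Of the 13703 genes, 0.671% had an r of 0.5 or more with Arntl and 0.744% an r of -0.5 or less.

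**Figure D3:**
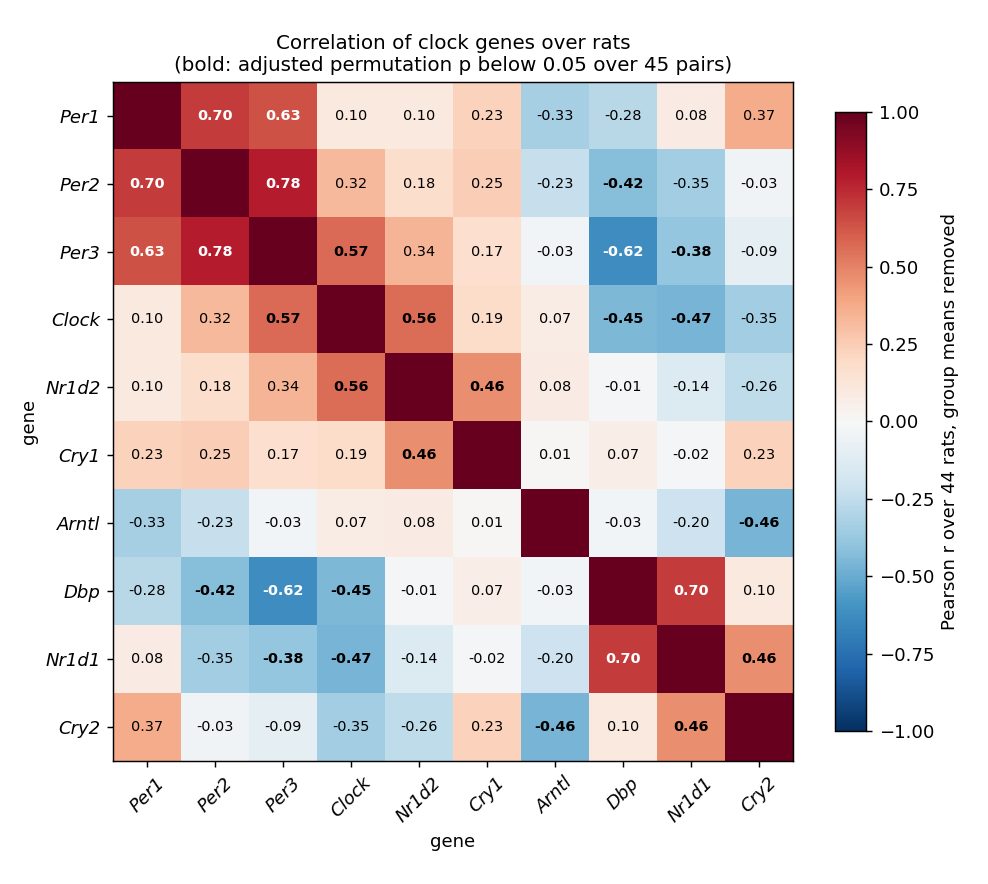
Pearson r of each pair of clock genes over 44 rats after each group's mean was removed (both axes list the genes, the color scale runs from -1 to 1, bold marks an adjusted permutation p under 0.05). The 3 Per genes form a positive block (0.63 to 0.78), Dbp and Nr1d1 another (0.70), and Dbp is negative with Per3 (-0.62).

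A simple contrast was taken per rat as the mean log2 level of Dbp, Nr1d1, Nr1d2 and Per3 minus that of Arntl and Clock. It is given with no test, since it is a score over chosen genes. It leaves out Per1 and Per2, and Per2 was higher in older rats, so its level depends on which genes enter it. Nor did its 2 sets of genes move as units from rat to rat. Per3 ran against Dbp (r = -0.62) and Nr1d1 (r = -0.38), and both Per3 (r = 0.57) and Nr1d2 (r = 0.56) went with Clock. The score was 1.11 ± 0.09 (SD, n = 10) for YNG, 0.92 ± 0.16 (SD, n = 12) for AV, 0.99 ± 0.21 (SD, n = 11) for AA and 0.75 ± 0.19 (SD, n = 11) for ADQ. The lowest YNG rat had 0.91, and ADQ rats ran from 0.47 to 1.14 with a median of 0.76. The series a means were 1.12 (YNG), 0.92 (AV), 1.15 (AA) and 0.89 (ADQ), and those of series b 1.09, 0.93, 0.86 and 0.63, so AA lay above AV in series a and under it in series b.

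The genes most like Dbp over the 44 rats, among those with a mean of at least 20, included Dnajb1 (r = 0.83), a heat shock co-chaperone, Pomgnt1 (r = 0.80), Cdc42se2 (r = 0.78) and Mrpl23 (r = 0.78). The most opposite were Oga (r = -0.81), which removes O-GlcNAc from proteins, Rapgef2 (r = -0.80), Tmem170b (r = -0.80), Ppm1h (r = -0.78) and Dstyk (r = -0.78). For Arntl the closest were Nup37 (r = 0.67), LOC100125368 and LOC102551539 (r = 0.66 each, with identical values in the table), Ndufaf7 (r = 0.64) and Psma4 (r = 0.64), and the most opposite included Apc2 (r = -0.71), Mdga1 (r = -0.71), Arhgap39 (r = -0.70) and Man2a2 (r = -0.69). No clock gene was among the 5 closest or the 5 most opposite genes of either. These r values were picked as extremes among 13703 genes and carry no test.

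The clock genes were also set beside 12 measures over the rats, the mean log2 level of 11 gene lists and the log2 estimated reads (120 relations, adjusted together, group means removed). Per3 ran opposite to the 5 microglial markers (r = -0.72, rho = -0.73, adjusted permutation p = 0.0006 for both, -0.64 without 2 rats), with r between -0.66 and -0.76 in each of the 4 groups. Dbp went with these markers (r = 0.61, rho = 0.61, adjusted permutation p = 0.0014 and 0.0018), from 0.26 in AV to 0.90 in AA. Per1 was opposite to them as well (r = -0.51, rho = -0.51, adjusted permutation p = 0.0063 and 0.012). Per1 went with the immediate early genes (r = 0.51, rho = 0.45, adjusted permutation p = 0.0203 and 0.0344), by 0.81 in ADQ and 0.08 in AA. Per2 went with glucocorticoid-responsive genes by r = 0.45 (adjusted permutation p = 0.0412) but not by rho = 0.38 (adjusted permutation p = 0.0678). The same tests gave Per3 with the granule cell markers by rho = 0.49 (adjusted permutation p = 0.018) but not by r = 0.37 (adjusted permutation p = 0.133), and Per1 with the estimated reads by rho = -0.45 (adjusted permutation p = 0.0341) but not by r = -0.35 (adjusted permutation p = 0.111). Not all of the 120 relations are named, and how often other genes reach such r values with these lists was not counted. The summed normalized value of a rat was not among the 12 measures. The part of cell makeup, of depth and of that sum in the variation between rats was not tested.

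Beyond the 10 genes, 25 of 26 other genes of the clock and its outputs were tested. Between older and young rats 6 were higher and 2 lower, which is 8 of 25 and again near the 32.4% of all genes, and Cipc and Arntl2 were among those that passed after adjustment. Cipc, an inhibitor of the CLOCK and BMAL1 pair, fell by 0.21 on the log2 scale (limma adjusted p = 0.0308), and passed without adjustment in each of AV, AA and ADQ (limma adjusted p of 0.123, 0.0742 and 0.107). Arntl2, the paralog of Arntl, was expressed at a low level, with medians of 11.2 in YNG and 17.5 in the older rats, and was higher by 0.60 ± 0.21 (limma adjusted p = 0.0424).

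A further 5 passed only without adjustment. Bhlhe40, a repressor of E-box genes, was higher by 0.39 (limma p = 0.0181), Cirbp, a cold-inducible RNA-binding protein, by 0.49 (limma p = 0.00791), Hlf, a relative of Dbp, by 0.25 (limma p = 0.0274) and Csnk1e, a kinase of PER proteins, by 0.15 (limma p = 0.0188). Usp2, a deubiquitinase, was lower (-0.19, limma p = 0.00829). Hlf and Tef bind the same D-box as Dbp, and Tef had -0.16 in AV against YNG (limma p = 0.033) and did not pass for all older rats. Npas2, an alternative partner of Arntl, passed in AA against YNG only (0.53, limma p = 0.029) and ranged from 255 to 1241 in AV and from 379 to 1315 in AA. Id2 was higher in ADQ than in YNG (0.28, limma p = 0.0394), and Fbxl21 and Timeless were higher in AV than in YNG (0.20, limma p = 0.0285, and 0.53, limma p = 0.0195).

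Between the older groups 2 of these 25 were lower in AA than in AV (Fbxl21 at -0.19 and Timeless at -0.50). In ADQ against AV 2 were lower (Bhlhe41 at -0.24 and Timeless at -0.48). None of the 25 was higher in either comparison, where 4.51% and 9.32% of all genes passed in either direction. In AA against ADQ, Bhlhe41 (0.22) and Ciart (0.34), 2 repressors of the loop, were higher in AA and Nampt, an enzyme of NAD synthesis, was lower (-0.18), where 4.53% of all genes passed. Ciart was also lower in ADQ than in YNG (-0.36, limma p = 0.0205), with medians of 134 (YNG), 115 (AV), 138 (AA) and 108 (ADQ). None of these passed after adjustment. Over the rats, the mean level of these 25 genes went with Per3 (r = 0.79, rho = 0.87, adjusted permutation p = 0.0006 for both), Per2 (r = 0.64), Per1 (r = 0.58), Clock (r = 0.51) and Nr1d2 (r = 0.44, and 0.20 without AV rat 12 and AA rat 4), the last 4 with adjusted permutation p of 0.0008, 0.0014, 0.0014 and 0.0412, and against Dbp (r = -0.53, rho = -0.61, adjusted permutation p = 0.0063 and 0.0018).

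**Figure D4:**
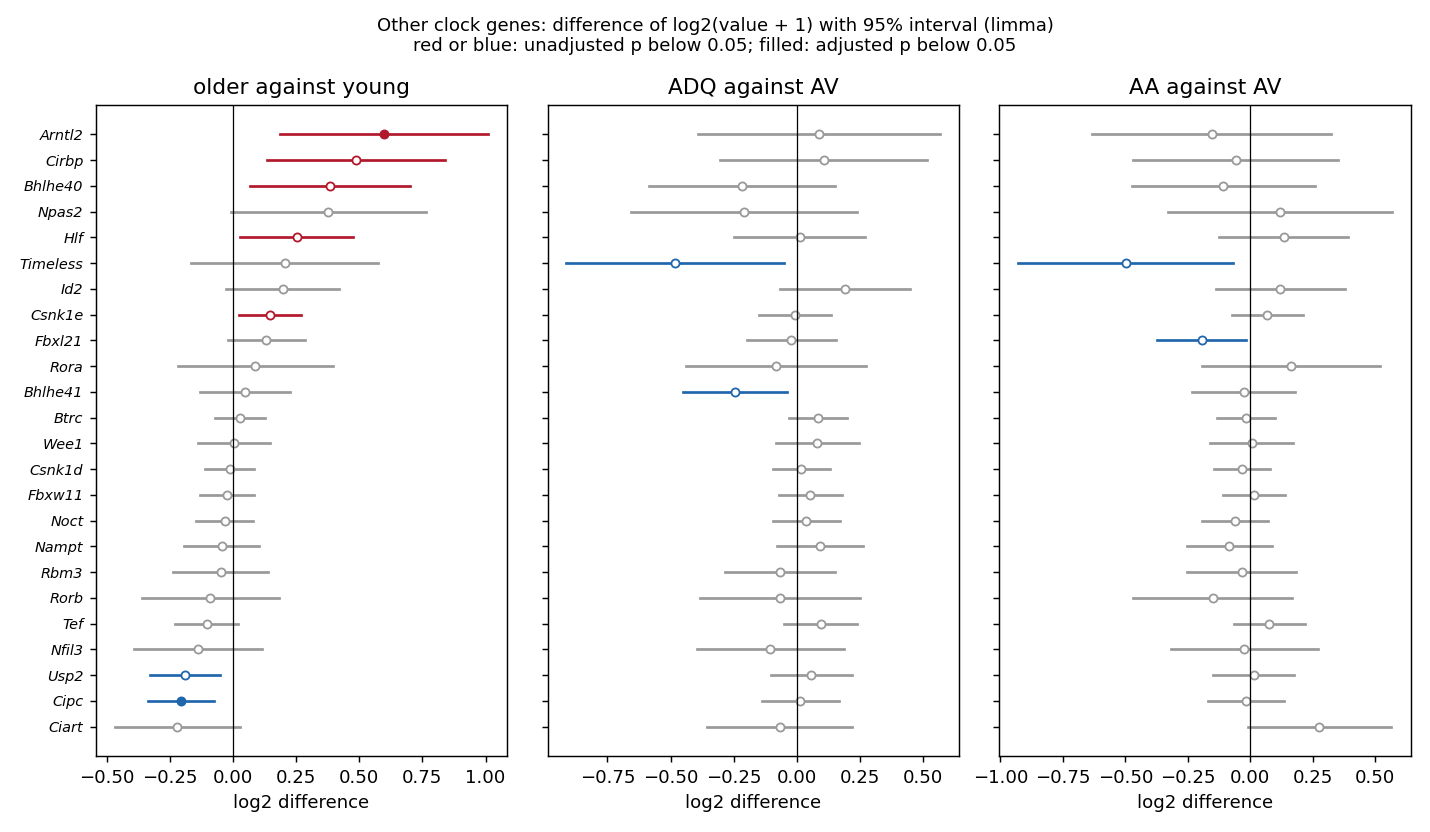
Difference of log2(value + 1) with its 95% interval for 24 other clock genes in 3 comparisons, with color for an unadjusted p under 0.05 (red higher, blue lower) and filled points for an adjusted p under 0.05. Arntl2 and Cipc have filled points in older against young, and no filled point appears in either comparison with AV.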

How the data were processed

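RNA of the DG was selected for poly(A), and Ion Total RNA-Seq libraries of 44 rats were sequenced. Per the labels and the methods, the authors aligned reads to the rn6 build with STAR 2.5.3a in Partek and scaled them by the median ratio. The deposited values are a normalized signal in 24694 rows, in which every library had been put on a common scale. Between 79.2% and 84.2% of low values per rat were whole reads (tolerance 0.05 reads), so they were not treated as counts. How reads were assigned to rows is not given in the sources used here.

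Rows of a gene were summed (8 rows for Per3, 3 for Clock, 2 for Nr1d1, Nr1d2 and Dbp, 1 for the others). Values were taken as log2(value + 1), genes with a mean of at least 5 kept, and 1 fit of 4 groups was made with limma 3.58.1 in R 4.3.3 (empirical Bayes with trend, two-sided). The threshold was an unadjusted p of 0.05, as in the study's methods; p values were adjusted by Benjamini-Hochberg over all tested genes. A fold change on this scale is understated for low genes. Correlations used Python 3.11.15 with numpy 2.4.6, pandas 2.3.3 and scipy 1.17.1, figures matplotlib 3.10.9. Both tests were checked on simulated data. Each rat is 1 animal and 1 library, and the 2 number series were read from the rat names.

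The clock genes, the other lists and the tests were chosen with earlier results of these data known. All 10 clock genes are named. Of the other clock genes those with p under 0.05 in any comparison are named, and the genes most like Dbp and Arntl are the 5 at each end, apart from a few genes that are not reported here. Alternatives covered the pseudocount, the filter, 2 scalings, the series, the fit, array weights, summing of rows, single rats and a permutation test, and leaving out the 4 rats with the lowest granule cell markers was chosen after seeing the data.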

Additional observations from a re-analysis of the deposited data

Results flagged for a closer look

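Nr1d2 in YNG had 1 rat apart from the others in Dixon's test for a group of 10. YNG rat 10 had a normalized value of 1175, while the other 9 rats had 835 to 1011. The test was run on 10 genes in the young group, and chance flags about 1 group in 20.

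Differences between groups were then compared between the 2 number series (70 limma interaction tests), and 9 had an unadjusted p under 0.05 and 0 passed after adjustment. For Nr1d2 the difference of series b minus series a was -0.37 for all older rats against YNG, -0.34 for AV and -0.45 for AA. For Cry1 it was -0.39 for all older rats, -0.38 for AV, -0.42 for AA and -0.37 for ADQ, each against YNG. For Nr1d1 in AA against AV it was -0.40, and for Dbp in ADQ against AV it was -0.59. Of all tested genes, 20.3% had an interaction p under 0.05 in older against young, 4.71% in AA against AV and 4.03% in ADQ against AV. The series come from rat numbers alone, and the origin of the split was not tested.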

How the results depend on the processing

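Lower Dbp in all older rats, lower Dbp and Nr1d1 in ADQ against YNG and higher Per2 in AA against YNG passed in each of the 15 other settings and without any 1 rat. Other calls depended on the rats used. In series a alone the difference of Dbp in ADQ against AV was 0.000524, and the count of clock genes past the threshold was 0 in ADQ against AV, 0 in AA against ADQ and 1 in AA against AV. In series b alone the difference of Cry1 in AA against YNG was -0.0227, and the count was 2 in older against young, 1 in AV against YNG, 1 in AA against YNG and 0 in AA against AV. Of all 45 pairs, 14 were correlated over all rats, 8 in series a alone and 6 in series b alone, with fewer rats. The pairs of a series need not be among the 14, since Nr1d1 with Nr1d2 passed in series a only.

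With only the 2 groups compared in the fit, AV against YNG had 0 and AA against AV 1. Array weights gave 7 in AA against YNG and 0 in AA against AV. The highest row of each gene gave 1 in AV against YNG, and the permutation test 1 in AV against YNG and 0 in AA against AV. Without the 4 rats with the lowest granule cell markers, a setting chosen after seeing the data, AV against YNG had 0 and AA against AV 1. The cause was not tested.

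Leaving out single rats gave counts from 0 to 3 in AV against YNG, 0 to 2 in AA against AV, 1 to 2 in ADQ against AV and 2 to 6 in AA against YNG. AV against YNG fell to 0 without YNG rats 3, 4 or 7 or AV rats 1, 3 or 11, and to 1 without YNG rats 1, 2 or 10 or AV rats 2, 4, 5, 6, 9 or 10. AA against AV fell to 1 without AV rats 2, 3, 4, 8, 9 or 11 or AA rats 3, 6 or 11. Over all genes, calls in older against young numbered 5058, 1375 in series b and 8660 with array weights. In AV against YNG they numbered 3326, 5212 in series a, 984 in series b and 7694 with array weights. AA against YNG had 4153, 1928 in series b and 7068 with array weights, and ADQ against YNG 4386, 1077 in series b and 8101 with array weights. ADQ against AV had 1454, 885 in series a and 957 without the 4 rats, and AA against ADQ 707 and 1584 with array weights.

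Of 48 differences that did not pass, 33 changed direction in some setting and 17 passed in some. No paired analysis was possible because the labels give no replicate numbers and no pairing between groups, and the numbers used here only name the rats. The estimated depth limits what can be seen for low genes such as Arntl2.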

Other observations

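Glucocorticoid-responsive genes, counted because Per1 and Per2 respond to the same hormones, moved in both directions between older and young rats. The older rats here are AV, AA and ADQ together, so age and treatment are mixed. Of 12, 4 were higher in older rats (Sgk1, Tsc22d3, Pdk4 and Cdkn1a) and 2 lower (Zbtb16 and Klf9), where 32.4% of all tested genes passed. Sgk1, a kinase, was higher by 0.73 (limma adjusted p = 0.00534) and Tsc22d3, which encodes GILZ, by 0.47 (limma adjusted p = 0.0269). Klf9, a transcription factor, was lower (-0.43, limma adjusted p = 0.0176), as was Zbtb16 (-0.40, limma adjusted p = 0.0227). In AV against YNG 3 of 12 were higher and 1 was lower, where 21.3% of all genes passed. Tsc22d3 (limma p = 0.0581) and Zbtb16 (limma p = 0.1) did not pass there. Fkbp5, an inhibitor of the receptor, did not pass between older and young rats and was lower in AA than in ADQ (-0.18, limma p = 0.0243, adjusted p = 0.981).

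The genes most like Per2 over the rats, looked at after the values were seen, were Myo9b (r = 0.93), Acacb (r = 0.90), Dennd2b (r = 0.89), Kdm6b (r = 0.89) and Plekhg3 (r = 0.89), ahead of Per3 at rank 190 and Per1 at rank 539 of 13703. These are extremes among many genes and carry no test.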
